A study of Mus musculus with 2 samples.

Results

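The cells described here carry the tag G7 in a Drop-seq file of mouse medulloblastoma, a tumour of the cerebellum. They were taken as every column whose name starts with that tag, which gave 334 of the 4991 cells in the file and of the 10991 cells in the series. No label explains the 16 tags of the file, so it is not known whether a tag stands for an animal, a run or a group made from expression. The tag was proposed as holding progenitors that leave the cell cycle, with Mcm6, Cntn2 and Nhlh1 as marker genes. None of these markers was highest in G7, so the cells are called by their tag.

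The study ran Drop-seq, a droplet method that tags the 3′ end of each captured messenger RNA with a molecular barcode (UMI), on tumours of hGFAPcre;Ptchc/c mice. The G7 cells come from mice of postnatal days 24 to 30 (P24-30), and the other library from mice of postnatal day 12 (P12), both of the same genotype. In this model Cre recombinase under a GFAP promoter acts in neural progenitors on conditional alleles of Ptch1, whose product holds Sonic hedgehog signalling in check. Tumours were dissociated with TrypLE and collagenase type I and red blood cells were lysed. There is 1 library per age and no control without Cre, and the labels do not say how many animals were used.

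Granule neuron progenitors of the cerebellum divide under Sonic hedgehog and are the cells from which this kind of tumour grows. A progenitor that commits to S phase first loads the MCM helicase onto replication origins, then makes DNA and histones, and then switches on the mitotic genes. On leaving the cycle it switches on genes of the young granule neuron, such as the adhesion protein gene Cntn2 and the transcription factor gene Nhlh1.

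Promoter sequences of the marker genes and of Hmgb2 are shown first, 300 bases each, from 250 before to 50 after the start, from RefSeq on GRCm38.p6. Mcm6 stands for licensing, Cntn2 and Nhlh1 for the young neuron, and Hmgb2 for the late cycle, since it set G7 apart from its nearest tags. Capitals mark any of 4 motifs on either strand, where overlapping matches were allowed. The E2F motif was searched as TTTCGCGC, TTTGGCGC or TTTCCCGC and the E-box as CAGCTG. The CCAAT box was searched as CCAAT and the cell-cycle homology region (CHR) as TTTGAA, both added after values had been seen. The windows, all given in the direction of the gene, are chr1:128359656-128359955 on the minus strand for Mcm6, chr1:132542891-132543190 on the minus strand for Cntn2, chr1:172057547-172057846 on the minus strand for Nhlh1 and chr8:57511593-57511892 on the plus strand for Hmgb2.
Mcm6: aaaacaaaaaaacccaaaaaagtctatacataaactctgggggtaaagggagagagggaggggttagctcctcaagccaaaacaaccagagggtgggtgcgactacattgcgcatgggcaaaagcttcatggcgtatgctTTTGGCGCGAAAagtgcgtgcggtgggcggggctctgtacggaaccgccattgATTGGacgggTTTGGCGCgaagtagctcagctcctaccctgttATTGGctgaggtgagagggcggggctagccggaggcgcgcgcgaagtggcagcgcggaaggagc
Cntn2: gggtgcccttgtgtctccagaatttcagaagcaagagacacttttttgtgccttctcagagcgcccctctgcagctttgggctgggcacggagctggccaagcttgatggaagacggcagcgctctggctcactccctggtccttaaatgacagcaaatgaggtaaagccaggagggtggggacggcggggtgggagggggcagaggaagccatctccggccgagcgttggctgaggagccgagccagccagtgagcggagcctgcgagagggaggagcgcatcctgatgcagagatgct
Nhlh1: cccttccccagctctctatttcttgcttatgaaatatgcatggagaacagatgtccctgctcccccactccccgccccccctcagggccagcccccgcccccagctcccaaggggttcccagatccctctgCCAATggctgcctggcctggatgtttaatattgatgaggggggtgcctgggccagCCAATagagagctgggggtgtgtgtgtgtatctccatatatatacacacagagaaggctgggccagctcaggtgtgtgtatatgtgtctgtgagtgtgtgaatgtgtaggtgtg
Hmgb2: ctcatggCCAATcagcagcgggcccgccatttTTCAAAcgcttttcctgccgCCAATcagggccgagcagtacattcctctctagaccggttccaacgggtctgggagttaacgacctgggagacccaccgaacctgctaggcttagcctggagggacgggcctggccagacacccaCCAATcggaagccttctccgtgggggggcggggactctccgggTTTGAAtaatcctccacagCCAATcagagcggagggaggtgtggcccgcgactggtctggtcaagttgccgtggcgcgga

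The Mcm6 window holds 3 E2F matches, of which a pair overlap, and 2 CCAAT boxes. The Cntn2 window holds none of the 4 motifs, and the Nhlh1 window holds 2 CCAAT boxes. The Hmgb2 window holds 4 CCAAT boxes and 2 CHR matches. Other late-cycle genes, not shown, differ from it. The Nusap1 window holds none of the 4 motifs, that of Birc5 1 E-box and that of Ccnb1 2 CCAAT boxes, without a CHR match in any. Of the 60 genes on the licensing and S phase lists, 46 had a promoter in the table, and 17 of these (37.0%) held an E2F match, against 1.91% of all 27025 promoters. An E2F match was found in 0 of the 32 promoters of the early granule neuron list. In the G2 and M list, 37 of 48 promoters (77.1%) held a CCAAT box, against 37.9% of all promoters, and 33 (68.8%) held a CHR match, against 18.1%. A CCAAT box was also in 58.7% of the licensing and S phase promoters and in 50% of the early neuron promoters. The E-box was found in 15.2% of the licensing and S phase promoters and in 18.8% of the early neuron promoters, against 16.1% of all. These matches describe letters in a window and say nothing of binding.

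The G7 cells held 778918 UMIs, with a median of 2187.5 per cell (range 539 to 6413), against 11477545 UMIs and a median of 2140 in the 4657 cells of the other tags. Mitochondrial genes held 3.33% of UMIs in G7 and 3.48% in the other tags. Ribosomal protein genes held 17.4% in G7, the highest share of the 16 tags, and 14.5% in the others. No G7 cell had under 500 UMIs or over 20% mitochondrial UMIs, against 153 and 49 cells in the other tags. Levels below are UMIs summed over a tag's cells, scaled to that tag's total as CPM. All intervals are exact 95% intervals that cover counting error only, and since cells are not replicates of an animal, no difference is tested.

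Across 11179 genes, the tags most like G7 were G5 (Pearson r = 0.976 of log2(CPM + 20)), G6 (r = 0.972) and G15 (r = 0.972). These are correlations across genes of tags that share a library. The G7 cells were a loose group, as 19.0% of their 15 nearest neighbours carried G7, against 6.69% of all cells. A further 17.4% of neighbours carried G6 (9.14% of all cells), 15.1% G5 (7.59%), 12.2% G15 (5.77%), 12.0% G13 (10.6%) and 9.34% G14 (6.31%). The G13 share was thus near its share of all cells. Tag G15 (288 cells) was added to the comparisons after these values had been seen, beside G5 (379 cells) and G6 (456 cells).

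Ptch1, the targeted gene (chromosome 13, 63508328 to 63573598, minus strand), was at 14.1 CPM in G7 (11 UMIs in 11 cells, interval 7.05 to 25.3). It was at 15.2 CPM in G5, 17.95 in G6, 19.1 in G15 and 12.2 over all other tags, and these intervals overlap that of G7. The labels do not say which exons the conditional allele loses, and 3′ counts of the gene therefore cannot serve as a check of the deletion.

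The marker genes placed G7 between its neighbours. Mcm6, a subunit of the replicative helicase (chromosome 1, 128331590 to 128359664, minus strand), was at 179.7 CPM in G7 (151 to 212). It was at 157 CPM in G5, 219.9 in G6, 114.5 in G15 and 124.3 over all other tags, with a ratio of G7 to all other tags of 1.45 (1.21 to 1.72). G7 was the fourth highest of the 16 tags for Mcm6, whose levels in the others ran from 6.98 CPM in G9 to 287.8 CPM in G3. Only against G15 and the pooled tags did the interval of the ratio lie above 1.

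Cntn2, an adhesion protein of young granule cells (chromosome 1, 132509427 to 132543256, minus strand), was at 184.9 CPM in G7 (156 to 218). It was at 161.3 CPM in G5, 107.7 in G6, 308.8 in G15 and 185 over all other tags. The ratio of G7 to G6 was 1.72 (1.34 to 2.21) and that of G7 to G15 was 0.599 (0.477 to 0.75). Nhlh1, a helix-loop-helix factor of early differentiating neurons (chromosome 1, 172052292 to 172057573, minus strand), was at 137.4 CPM in G7 (113 to 166). It was at 119.1 CPM in G5, 88.9 in G6, 170 in G15 and 136.9 over all other tags. G7 was eighth of the 16 tags for Cntn2 and for Nhlh1, and G12 was the highest for each, at 688.6 and 452.1 CPM. Beyond counting error, G7 thus lay above G6 for Cntn2 and Nhlh1, below G15 for Cntn2, and above G15 and the pooled tags for Mcm6. For Cntn2 and Nhlh1 the interval of the ratio to all other tags included 1.

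In single cells, 28.7% of G7 cells had a Mcm6 UMI (96 of 334), 25.7% a Cntn2 UMI and 23.1% a Nhlh1 UMI. In the 56 cells with at least 4 of 12 microglia markers, which should lack the neuron genes, the shares for Mcm6, Cntn2 and Nhlh1 were 5.36%, 1.79% and 5.36% at a median depth of 2226.5 UMIs; the G7 median is 2187.5. After thinning every cell to 500 UMIs, 36 G7 cells (10.8%) kept a Mcm6 UMI, 13 (3.89%) a Cntn2 UMI and 25 (7.49%) a Nhlh1 UMI. Of the microglia-marked cells 0 of 56 kept a Cntn2 UMI, which allows a share of up to 5.36% (3 cells). Over all ways of thinning, the expected Cntn2 share is 7.62% in G7 and 4.58% in G6, while the draw used gave 3.89% in G7 and 5.04% in G6. The draw thus put G7 under that limit and the expected share above it, and no order is read from the draw. The expected shares for Mcm6 are 8.68% in G7, 7.58% in G5, 10.1% in G6, 5.38% in G15 and 5.55% over all other tags, in the order of the CPM levels of G6, G7, G5 and G15.

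**Figure D1:**
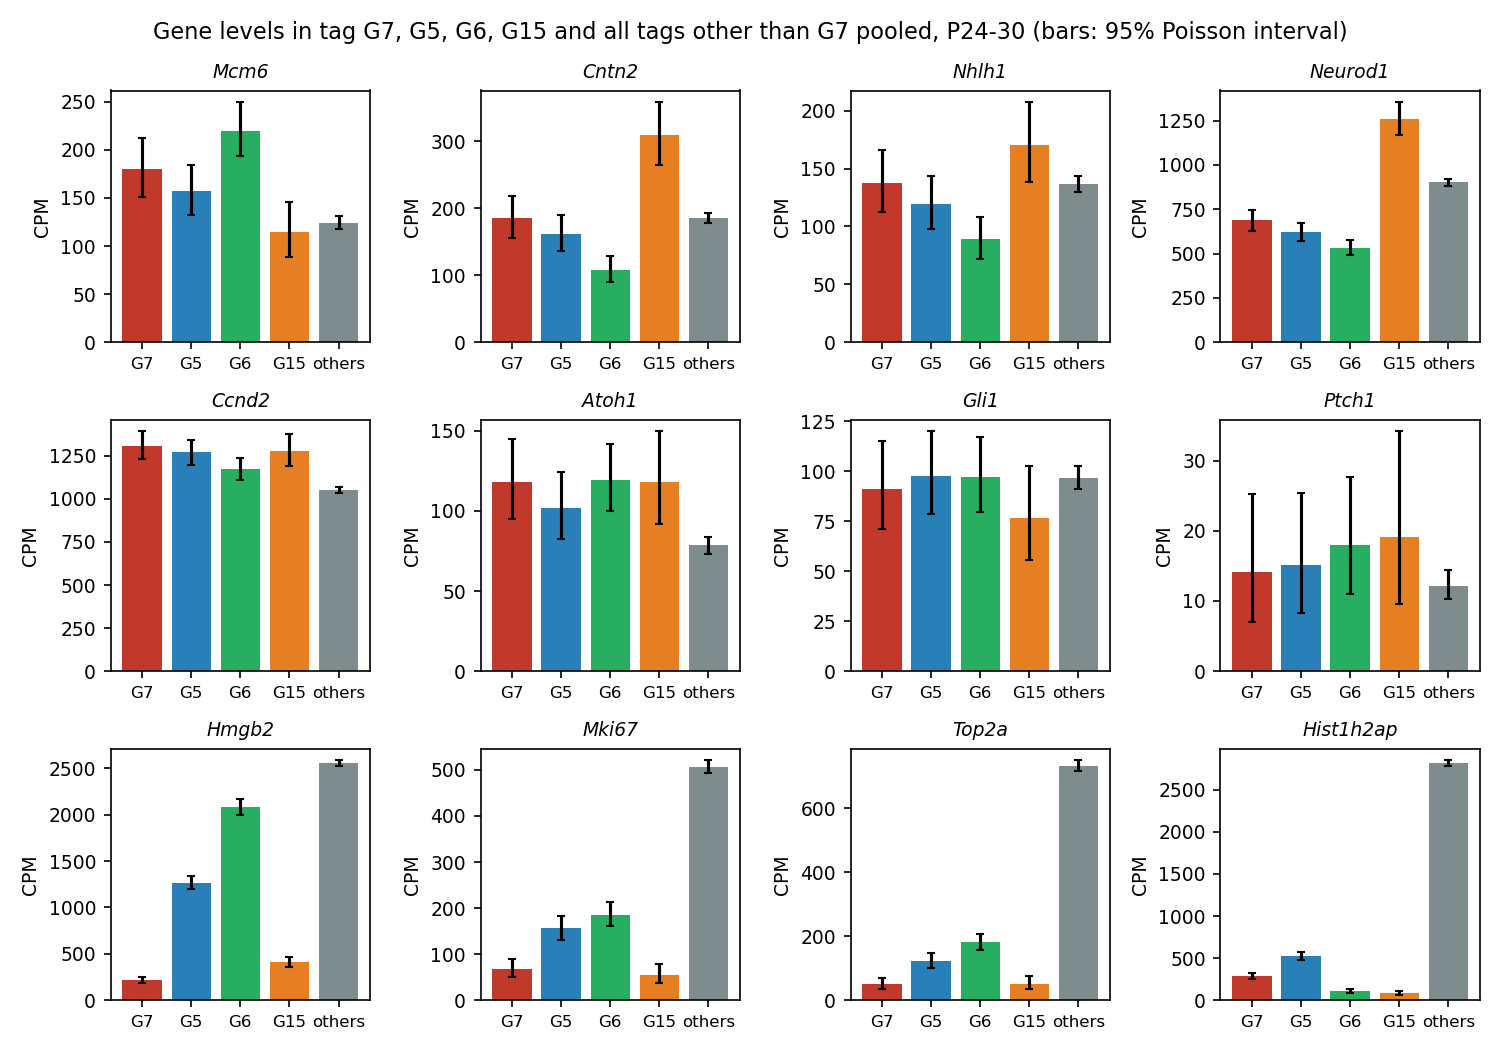
Levels of 12 genes in CPM (y axes, each from 0) in tags G7, G5, G6 and G15 and in all tags other than G7 pooled (x axes), with exact 95% Poisson intervals. Hmgb2 is at 215.7 CPM in G7 and at 1265 and 2084 CPM in G5 and G6, while Ccnd2, Atoh1, Gli1 and Ptch1 are close in these tags.

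Licensing genes, which prepare origins for replication, were near the pooled tags in G7, below G5 and G6 and above G15. The median log2 ratio of G7 to all other tags over the 20 counted genes was 0.03, with 0 genes at least 2-fold higher and 3 at least 2-fold lower. A gene was counted with at least 50 UMIs over both sides, and over all 11179 counted genes 1.31% were at least 2-fold higher in G7 and 9.43% at least 2-fold lower. The 3 lower genes were Cdc7, the kinase that fires origins, its partner Dbf4, and Gmnn, the licensing inhibitor that is present after S phase has begun. Dbf4 was at 12.8 CPM in G7 and 85.9 over the other tags (ratio 0.149, 0.0714 to 0.276), and Gmnn was at 43.7 CPM in G7 and 90.96 over the others (ratio 0.48, 0.331 to 0.675). Mcm4 (ratio 1.31) and Mcm6 were the highest. Against G6 the median was -0.56, with 4 of 18 genes at least 2-fold lower in G7, among them Gmnn (0.399) and the loading factor Cdc6 (0.477). The background in that comparison was 1.01% of 5322 genes at least 2-fold higher in G7 and 1.92% lower. Against G5 the median was -0.38 with 0 of 17 past 2-fold either way, beside 0.436% of 5049 genes higher and 1.37% lower. Against G15 it was 0.26 with 0 of 14 past 2-fold, beside 0.79% of 4304 genes higher and 0.86% lower.

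Fork and nucleotide genes, which copy the DNA, followed the same order. The summed level of the 40 genes was 2831 CPM in G7, against 3700 in G5, 4681 in G6, 2281 in G15 and 4010 over all other tags. Relative to all other tags, 0 of 40 genes were at least 2-fold higher in G7 and 9 were at least 2-fold lower, beside 9.43% of all 11179 genes lower. The list's median log2 ratio was -0.53. That median was -0.011 when each of the other tags was counted alike. Tk1 and Rrm2, which make deoxynucleotides, were the lowest, with 10.3 CPM in G7 and 65.95 over the others for Tk1, and 26.96 CPM in G7 and 141.7 over the others for Rrm2. Ung, a uracil glycosylase (ratio 1.59, 1.19 to 2.09), and Msh6, a mismatch repair gene (1.42, 0.938 to 2.09), were the highest. Pcna, the sliding clamp, was at 344.1 CPM in G7, 471 in G5, 563.7 in G6 and 255 in G15. Against G6, 8 of 34 genes were at least 2-fold lower in G7 (median -0.73), among them Rrm2 (0.25). Against G5, 3 of 32 were (median -0.39), and against G15, 2 of 24 were at least 2-fold higher, Clspn (2.27), a checkpoint mediator, and Rpa2 (2.11), which coats single-stranded DNA. The summed ratio to G15 was 1.24 (1.16 to 1.33) for this list and 1.15 (1.05 to 1.26) for the licensing list. Summed over either list, G7 lay below G5 and G6 and above G15 beyond counting error.

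The G2 and M genes, which build the spindle and divide the cell, were far lower in G7 than over the pooled other tags. Of 55 counted genes, 50 were at least 2-fold lower in G7 and 0 were higher, with a median log2 ratio of -3.55, beside 9.43% of all 11179 genes lower. Their summed level was 2740 CPM in G7, against 5216 in G5, 6908 in G6, 2524 in G15 and 12798 over all other tags. Nusap1, a spindle protein gene, had 3 UMIs in G7 and 2553 in the others (ratio 0.0173, 0.00357 to 0.0507). Birc5, a chromosomal passenger gene, had 4 UMIs in G7 and 2459 in the others, Cdc20, an activator of the anaphase-promoting complex, 6 in G7 and 2385 in the others, and Ndc80 of the kinetochore 1 in G7 and 947 in the others. Kif2c, a kinesin, was not seen in G7 and had 659 UMIs elsewhere. With the floor of 3 UMIs over the group that is used for a count of 0, its ratio was 0.0671. The upper bound of the interval was 0.0827. Also among the 12 lowest of all genes were Esco2, a cohesin acetyltransferase gene, Kif23, Hmmr and Spc25. Mki67, the proliferation marker, was at 68.0 CPM in G7 (51.0 to 89.0), 155.9 in G5, 185.8 in G6, 55.5 in G15 and 507.3 over all other tags. The pool of other tags includes 3 with list levels from 14776 to 33979 CPM (G2, G1 and G16). Among the 16 tags G7 was ninth for the list, with G15, G11, G14, G13, G12, G9 and G8 lower. The G2 and M level thus set G7 below G5 and G6, with 8 of the other tags above G7 and 7 below it.

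Hmgb2, a chromatin protein gene of late S phase and G2 (chromosome 8, 57511907 to 57515999, plus strand), separated G7 from its nearest tags. It was at 215.7 CPM in G7 (184 to 251), against 1265 in G5, 2084 in G6, 411.2 in G15 and 2555 over all other tags. The ratios were 0.171 to G5 (0.144 to 0.201), 0.103 to G6 (0.0879 to 0.121) and 0.525 to G15 (0.428 to 0.642). A UMI of Hmgb2 was seen in 112 of 334 G7 cells (33.5%), in 83.1% of G5 cells and in 98.7% of G6 cells. In the microglia-marked cells it was seen in 39.3% (26.5 to 53.2), an interval that overlaps the G7 share. Across all tags G7 was twelfth for Hmgb2, and the level ran from 131.3 CPM in G13 to 6139 CPM in G16. Anp32e, a histone chaperone gene of the same list, did not follow it, at 520 CPM in G7, 532.8 in G5, 574.5 in G6 and 164.8 in G15 (ratio to G15 3.15, 2.52 to 3.99). Against G5, 12 of 27 G2 and M genes were at least 2-fold lower in G7, and against G6, 21 of 34, led by Dlgap5, a spindle gene, at 2.57 CPM in G7 and 46.7 in G6. Against G15, 0 of 15 were lower and 1 was higher, with a median of 0.09. Over all counted genes, 1.37% were at least 2-fold lower against G5, 1.92% against G6 and 0.86% against G15.

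**Figure D2:**
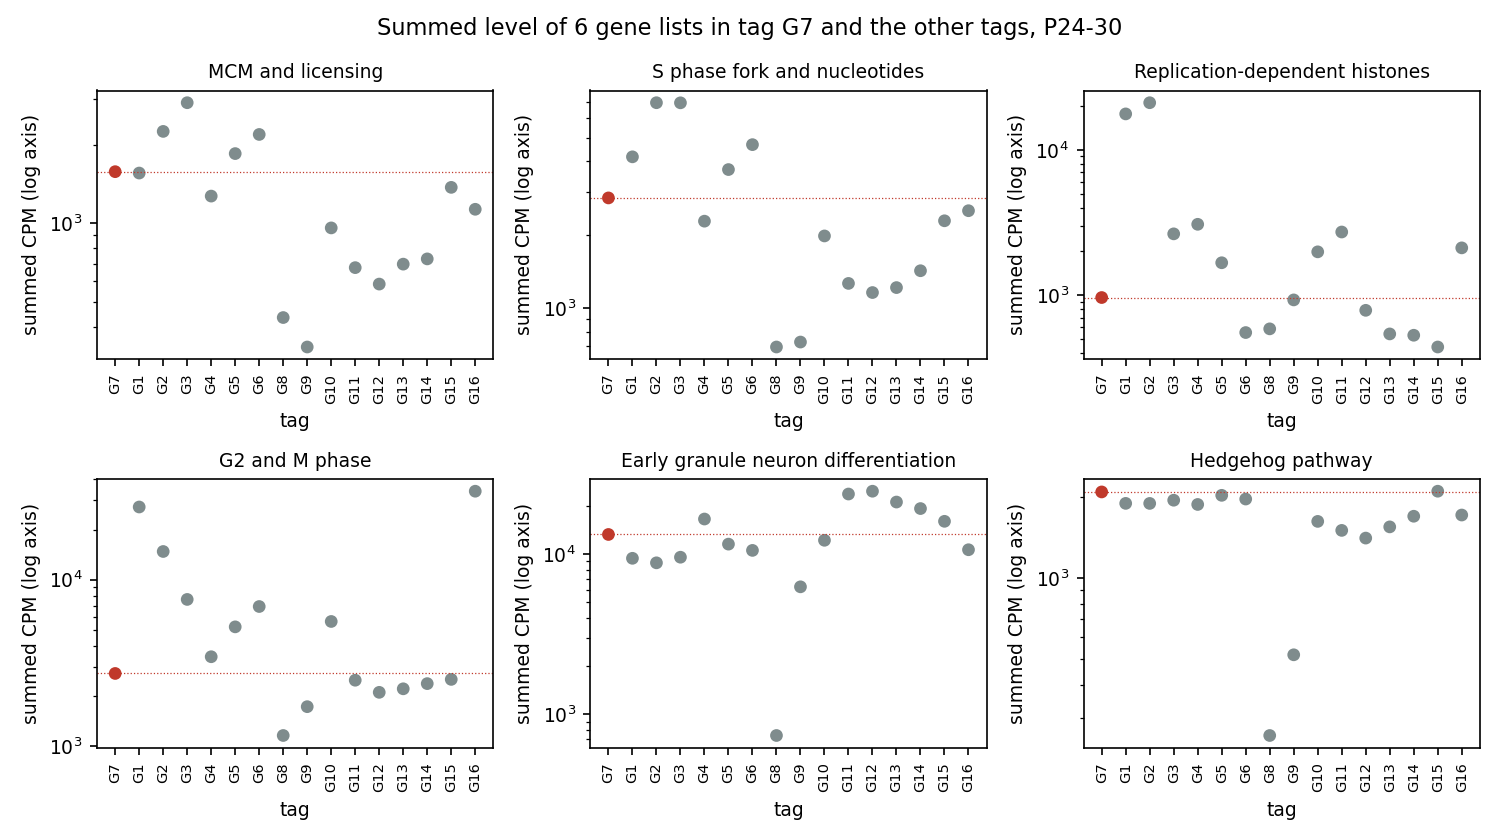
Summed CPM of 6 gene lists (y axes, log scale) in G7 (red, dotted line) and the other 15 tags (grey), 1 point per tag. G7 lies at 2740 CPM for the G2 and M list against 5216 in G5 and 6908 in G6. For the Hedgehog list it lies at 2091 CPM, second of the 16 tags, a sum made up mostly of Sfrp1.

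UMI counts of replication-dependent histone genes, which supply histones during S phase, did not follow those of the fork genes. These counts are not read as a measure of histone supply. Their summed level was 964.2 CPM in G7, against 1672 in G5, 553.9 in G6, 440.7 in G15 and 7813 over all other tags. The ratio of these sums over all 19 genes was 1.74 for G7 to G6 (1.56 to 1.94) and 2.19 for G7 to G15 (1.90 to 2.53). Relative to all other tags, 15 of 19 genes were at least 2-fold lower in G7, beside 9.43% of all 11179 counted genes. Only 10 genes were counted against G6 and 7 against G15, some of them only through their level in G7, such as Hist1h2ab with 39 UMIs in G7 and 12 in G15. The medians of the counted genes, 1.30 against G6 and 1.27 against G15, were 0.092 and 0.57 with a minimum of 10 UMIs in place of 50, so no direction is read from them. Hist1h2ap was at 282.4 CPM in G7 (220 UMIs in 178 cells, at most 3 in a cell), 525.2 in G5, 107.7 in G6 and 81.5 in G15. Hist1h2af was at 116.8 CPM in G7, 34.1 in G6 and 24.3 in G15. Hist1h2ag (177.2 CPM in G7 and 65.5 in G6) and Hist1h2ao (278.6 CPM in G7 and 111.3 in G6) were also among the 8 genes most above G6. These histone genes are close copies of each other, so how reads were split among them is uncertain. S100a16, a calcium-binding protein gene, was among these 8 too (ratio 3.02, 57 UMIs in 32 G7 cells and 27 UMIs in G6). It reached the minimum of 50 UMIs only through its level in G7.

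Genes of early granule neuron differentiation lay above G5 and G6 in G7 and below G15. Their summed level was 13225 CPM in G7, against 11514 in G5, 10524 in G6, 15971 in G15 and 12422 over all other tags. Relative to all other tags, 0 of 43 genes were past 2-fold either way (median 0.06). Relative to G6 the median was 0.33 and 1 of 35 genes was at least 2-fold higher, beside 1.01% of 5322 genes. This was Dcx, a microtubule protein gene of migrating neurons. Dcx was at 137.4 CPM in G7 (113 to 166), 115.9 in G5, 66.4 in G6 and 140.5 in G15. Tubb3, a neuronal tubulin gene, was at 603.4 CPM in G7, 507.9 in G5, 407.5 in G6 and 815.4 in G15. Neurod1, which drives granule neuron differentiation, was at 686.9 CPM in G7 (630 to 748), 620.5 in G5, 531.4 in G6 and 1258 in G15. The order from G6 through G5 and G7 to G15 was found for Cntn2, Nhlh1, Neurod1, Tubb3 and Dcx. Of these, only Tubb3 had a ratio of G7 to G5 whose interval lay above 1 (1.19, 1.04 to 1.35), so G7 and G5 do not differ beyond counting error for the others. Over the list, G7 was above G5 for 30 of 35 counted genes, above G6 for 29 of 35 and below G15 for 28 of 33. Others went the other way, such as Mfap4 (0.624) and Sema6a (0.782) against G5, Dclk1 (0.757) against G6 and Neurod6 (1.27) against G15. Relative to G15, 3 of 33 genes were at least 2-fold lower in G7 (median -0.24), beside 0.86% of 4304 genes. Among them were Mfap4 (0.411), a matrix protein gene, and Dpysl3 (0.454), which acts in axon growth.

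Late granule neuron genes summed to 2144 CPM in G7, 1909 in G5, 1804 in G6, 2481 in G15 and 2111 over all other tags. The summed ratio of G7 was 1.12 (1.05 to 1.20) to G5, 1.19 (1.11 to 1.27) to G6 and 0.864 (0.805 to 0.928) to G15. Relative to G5 1 of 12 counted genes was past 2-fold, beside 0.436% of 5049 genes higher and 1.37% lower. This was Slc17a6, a vesicular glutamate transporter gene, at 202.8 CPM in G7 (158 UMIs in 87 cells) and 100.7 in G5 (ratio 2.01, 1.55 to 2.63). It was at 127.5 CPM in G6 and 232.5 in G15. Grin1 and Syn1 were 2.11 and 2.05 times the level of all other tags, but from 10 and 11 UMIs in G7, and both intervals include 1. Among the 8 genes most above G5, Gng3, a neuronal G protein subunit gene, was at 130.95 CPM in G7 and 64.97 in G5, and Phactr1, an actin regulator gene, was at 46.2 CPM in G7 and 17.3 in G5. Capza1, which caps actin filaments, was at 57.8 CPM in G7 and 23.8 in G5. Trim24, a transcriptional cofactor gene, was at 105.3 CPM in G7 and 49.8 in G5, and Acbd3, a Golgi protein gene, was at 107.8 CPM in G7 and 50.9 in G5. Dqx1 had 50 UMIs in only 8 G7 cells, and 16 UMIs in G5. Phactr1 had 36 UMIs in G7 and 16 in G5, and Capza1 45 in G7 and 22 in G5. Phactr1, Capza1 and Dqx1 reached the minimum of 50 UMIs only through their level in G7, so nothing is read from their ratios.

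**Figure D3:**
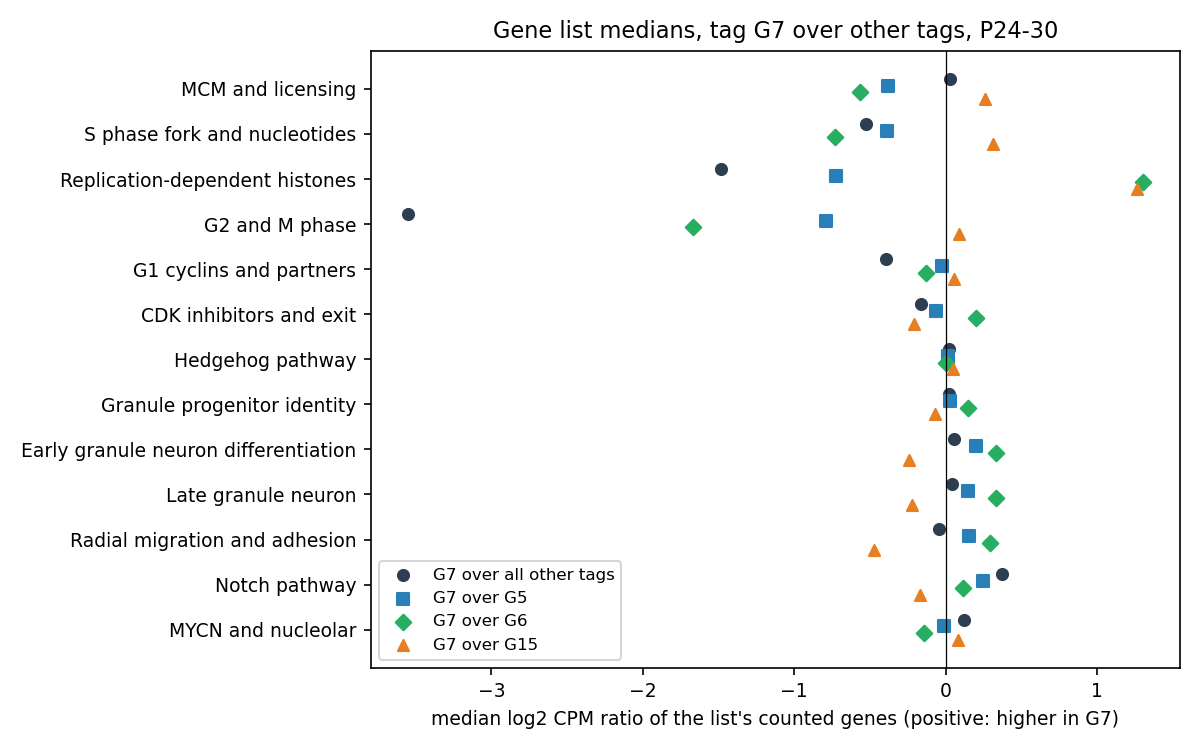
Median log2 CPM ratio of the counted genes of 13 lists (x axis, positive values higher in G7) for G7 over all other tags, G5, G6 and G15. The G2 and M list lies at -3.55, -0.79, -1.67 and 0.09, and the early granule neuron list at 0.06, 0.20, 0.33 and -0.24.

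Of the counted genes of progenitor identity and Hedgehog signalling, 0 were past 2-fold relative to G5, G6 or G15. The progenitor identity list summed to 3075 CPM in G7, 2963 in G5, 2796 in G6 and 3400 in G15. Its summed ratio was 1.10 (1.04 to 1.16) to G6 and 0.904 (0.851 to 0.96) to G15. It was highest in G12 (4063 CPM), as was the early neuron list, so its level alone does not mark progenitors. The Hedgehog list had 0 of 14 genes past 2-fold relative to all other tags (median 0.02), and its summed level was 2091 CPM in G7, second of the 16 tags. Most of that sum (1528 CPM) was the single gene Sfrp1, so the place is not read as high Hedgehog signalling. Gli1, a Hedgehog target and effector, was at 91.1 CPM in G7 (71.2 to 115), 97.5 in G5, 96.9 in G6, 76.3 in G15 and 96.7 over all other tags. Mycn, a growth-driving target, was at 204.1 CPM in G7, 180.8 in G5, 194.8 in G6, 204.7 in G15 and 161.4 over all other tags. Atoh1, which keeps granule progenitors dividing, was at 118.1 CPM in G7 (95.2 to 145), 101.8 in G5, 119.4 in G6, 118 in G15 and 78.4 over all other tags. Ccnd2, a D-type cyclin gene, was at 1308 CPM in G7, the highest of the 16 tags, 1269 in G5, 1172 in G6, 1279 in G15 and 1051 over all other tags. Sfrp1, a secreted Wnt antagonist gene that Hedgehog raises in this lineage, was at 1528 CPM in G7, 1459 in G5, 1368 in G6, 1504 in G15 and 1254 over all other tags. Of 19 progenitor identity genes 2 were at least 2-fold lower in G7 than in all other tags, beside 9.43% of all 11179 counted genes. They were Id3 (0.216) and Id1 (0.381), which encode inhibitors of helix-loop-helix factors. No trait of the list is read from them. Hes1, a Notch target, was at 44.9 CPM in G7 and 27.3 over all other tags (ratio 1.65, 1.13 to 2.34).

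Genes of CDK inhibition and exit, which hold cells out of the cycle, were not higher as a list. Relative to all other tags 0 of 17 were at least 2-fold higher in G7 and 4 were at least 2-fold lower (median -0.16). Over all 11179 counted genes 1.31% were higher and 9.43% lower. Relative to G6, 1 of 7 was lower, Cdkn1a (0.292), beside 1.92% of 5322 genes. Cdkn1b, which encodes p27, was at 243.9 CPM in G7 (210 to 281), 227.4 in G5, 211.8 in G6, 268.9 in G15 and 246.9 over all other tags. Cdkn1a, which encodes p21, was at 12.8 CPM in G7 and 39.99 over all other tags (ratio 0.321), and Btg2, an antiproliferative gene, was at 38.5 CPM in G7 and 24.9 over the others (ratio 1.55, 1.02 to 2.26). Ccne2, the cyclin E2 gene, was at 20.5 CPM in G7, 48.7 in G5 and 49.4 in G6.

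How the S phase and neuron genes were spread over cells was asked after thinning each cell to 500 UMIs. A cell was counted as carrying a list with at least 2 UMIs. The S phase list here joins the licensing and fork genes. It was carried by 54.8% of G7 cells (49.3 to 60.2), 63.7% of G5, 70.8% of G6, 48.1% of G15 and 57.2% of all other cells, and by 23.2% of microglia-marked cells. The G2 and M list was carried by 37.7% of G7 cells (32.5 to 43.2), 64.2% of G5, 75.4% of G6, 35.7% of G15 and 67.5% of all other cells. In microglia-marked cells it was 26.8% (15.8 to 40.3), which overlaps the G7 interval, so the G7 share cannot be told from theirs. Without thinning, 19.6% of microglia-marked cells had a Mki67 UMI and 21.4% a Top2a UMI, against 11.1% and 8.98% of G7 cells. They are thus not a blank for cycle genes, and no background level is read from them. Early neuron genes were carried by 95.8% of G7 cells, 89.9% of G5, 92.5% of G6, 94.3% of G15 and 91.3% of all other cells. Carrying this list at this threshold is thus not particular to G7. In microglia-marked cells the share was 21.4%.

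Since nearly all G7 cells carried early neuron genes, the share with both lists stayed close to the share with S phase genes. Both were carried by 173 G7 cells (51.8%, 46.3 to 57.3), against 57.6% of G5, 66.2% of G6, 44.5% of G15, 52.1% of all other cells and 5.36% of microglia-marked cells. The share in all other cells lay within the G7 interval. Of the G7 cells, the S phase list without the early neuron list was carried by 10 and the early neuron list without the S phase list by 147, while 4 carried neither. Early neuron genes without S phase or G2 and M genes were found in 100 G7 cells (29.9%, 25.1 to 35.2), against 12.2% of G5, 6.14% of G6, 34.3% of G15 and 18.6% of all other cells. The order of G7 and all other cells depends on depth and threshold, as thinning to 1000 UMIs gave 4.88% of G7, 2.99% of G5, 0.662% of G6, 10.5% of G15 and 6.91% of all other cells, and at least 1 UMI of 500 gave 5.99% of G7 and 5.28% of all other cells. The median G7 cell had 2 S phase UMIs and 6 early neuron UMIs of 500, and the most found in any G7 cell were 17 S phase UMIs and 25 early neuron UMIs. Across the 334 G7 cells, S phase and early neuron UMIs had a Pearson r of -0.08 (Spearman -0.10), against -0.27 across 4504 cells of the other tags. Those values share each cell's 500 UMIs and are weak, and no relation is read from them.

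**Figure D4:**
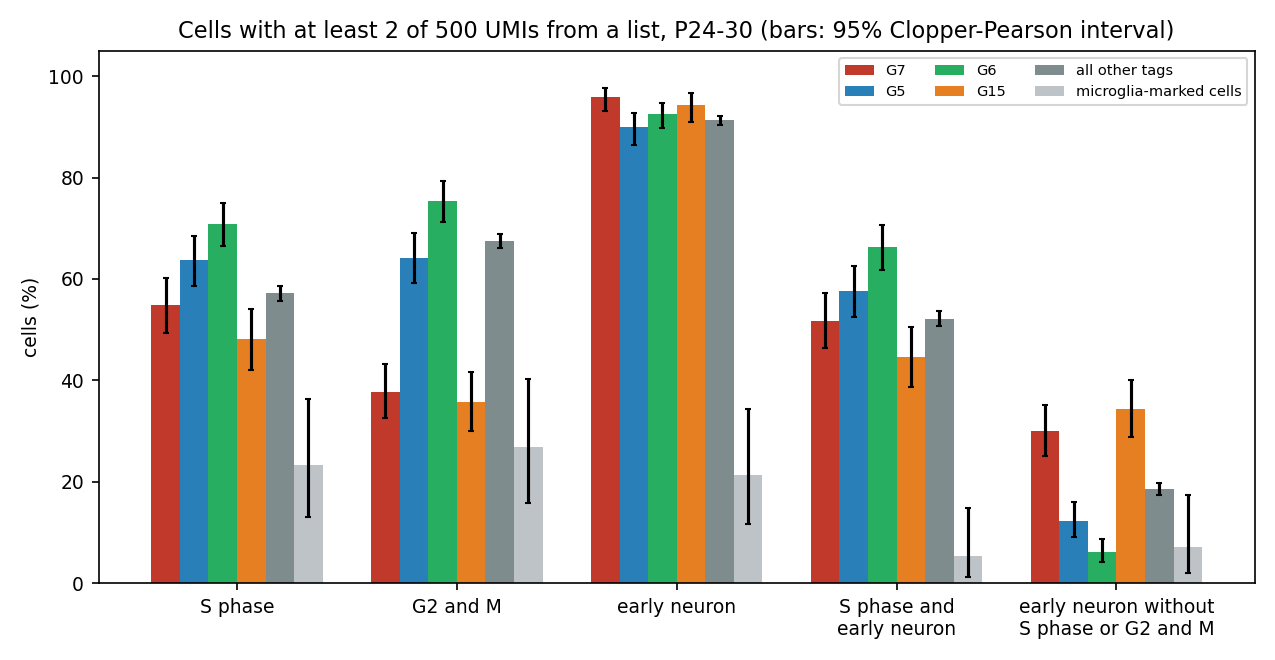
Percent of cells (y axis, from 0) with at least 2 of 500 UMIs from a list, in G7, G5, G6, G15, all other tags and microglia-marked cells, with exact 95% Clopper-Pearson intervals. Early neuron genes without S phase or G2 and M genes are in 29.9% of G7 cells, 12.2% of G5 cells, 6.14% of G6 cells and 34.3% of G15 cells.

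Most of the 7 genes that stood highest in G7 relative to all other tags had their UMIs in 1 cell. Tle3, a transcriptional corepressor gene, had 85 UMIs in G7, of which 64 lay in 1 cell, and its ratio of 3.73 to all other tags was 0.98 without the richest cell on each side. Ap3s2 had 64 of its 94 UMIs in 1 cell, Ms4a6b all 90 and Hrasls5 all 17. 9030612E09Rik had 25 of 26, and Tfpi, a coagulation inhibitor gene, 11 of 13. Spread over cells were Nat8l, which makes N-acetylaspartate (15 UMIs in 12 cells, ratio 3.62, 1.91 to 6.45), 2610021A01Rik, Gm11423, 4933407K13Rik and Psd. Gm17322 had 152 UMIs in 103 cells (ratio 1.99, 1.67 to 2.36). Without the richest cell on each side, the genes at least 2-fold higher in G7 numbered 55 in place of 146.

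Several genes lowest in G7 had many or most of their UMIs in single cells of other tags. The haemoglobin genes, which carry oxygen in red cells, were the lowest relative to G6, but of the Hbb-bt UMIs of G6 604 of 610 lay in 1 cell and of the Hba-a1 UMIs 543 of 551. Zfp715 had 4 UMIs in G7 and 130 in G5, 126 of them in 1 cell, and Vmn1r208 had 0 in G7 and 53 in G5, 48 of them in 1 cell. Apoe, a lipid carrier gene of astrocytes and microglia, had 110 UMIs in G7, 62 in 1 cell, and 785 in G5, 333 in 1 cell. Ttr, a choroid plexus gene, was at 101.4 CPM in G7 and 1701 over all other tags, with 4733 of 19526 UMIs in 1 cell of those. Enpp2, a phospholipase gene of the same tissue, had 10 UMIs in G7 and 3183 in the others, 1319 of them in 1 cell, and Spp1, osteopontin, had 0 in G7 and 774 in the others, 551 of them in 1 cell. Ttr, Enpp2, Spp1 and Apoe stayed lower in G7 without the richest cell on each side. Ttr then had 76 UMIs in G7 and 14793 in the others, Enpp2 7 and 1864, and Spp1 0 and 223. Apoe then had 48 UMIs in G7 and 452 in G5. Zfp715 then had 3 UMIs in G7 and 4 in G5, and Vmn1r208 0 and 5. Hbb-bt then had 0 UMIs in G7 and 6 in G6, and Hba-a1 3 and 8. No difference is read from such small counts. Without cells carrying 4 markers of another type, Spp1 had 0 UMIs in G7 and 16 in the others. Spats2l had 7 UMIs in G7 and 104 in G6, 90 of them in 1 cell. Relative to G5, 59 of the 61 Glis3 UMIs, 50 of the 51 of 1700034H15Rik, 32 of the 54 of Gm26861 and 39 of the 78 of Ctss lay in 1 G5 cell, and each of these genes had 1 UMI in G7. Hmgb2, by contrast, had at most 7 UMIs in a G7 cell, 27 in a G5 cell and 38 in a G6 cell.

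Other cell types were few in G7. Of the 12 microglia genes 6 were at 0, among them Cx3cr1 and Csf1r. The list summed to 16.7 CPM in G7 (13 UMIs), the lowest of the 16 tags, and 321.9 CPM over the others, whose tags ran from 23.3 to 31101 CPM. No G7 cell carried 4 microglia, endothelial, pericyte or choroid markers, while 5 carried 4 of the oligodendrocyte lineage and 4 carried 4 of astrocytes. The astrocyte list summed to 663.7 CPM in G7, 1370 in G5, 409.3 in G6 and 1291 over all other tags, with Aldh1l1 at 0 in G7. The oligodendrocyte list summed to 520 CPM in G7, 544.7 in G5, 328.5 in G6 and 644 over all other tags, with Mog and Mag at 0. Leaving out cells that carry 4 markers of another type was tried only for the comparison with all other tags, as given below. The part of such cells in the differences from G5, G6 and G15 was not tested. Interferon-response genes summed to 89.9 CPM in G7 (70 UMIs), lowest of the 16 tags, and 154 over all other tags. G16 was next at 98.4 CPM, while G8 was at 1081 and G9 at 635.3 CPM. The interferon and microglia places rest on few UMIs, so neither is read as a trait of G7.

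The median gene had a log2 ratio of G7 to all other tags of -0.03, beside which the medians of the remaining lists are given. Over all 11179 counted genes 1.31% were at least 2-fold higher in G7 and 9.43% at least 2-fold lower, and list counts near these shares are not read as traits. Relative to all other tags, the radial migration list had 1 of 24 genes at least 2-fold higher in G7 and 4 lower (median -0.05). Sema6d, a semaphorin gene, was the 1 higher (24.4 CPM in G7 and 11.7 over the others, from 19 UMIs). Relative to G15 the median was -0.47, with Sema6a, a semaphorin gene that acts in granule cell migration, at 42.4 CPM in G7 and 90.2 in G15. The Notch list had 0 of 14 genes higher past 2-fold and 2 lower (median 0.37), with Mfng, which modifies Notch, at 26.96 CPM in G7 and 14.2 over the others. The MYCN and nucleolar list had 2 of 21 lower (median 0.12), and Myc was at 35.9 CPM in G7 and 19.5 over the others. Of the 18 G1 cyclin and partner genes 5 were at least 2-fold lower in G7 (median -0.40), among them E2f8 (0.204), a repressor of late S phase, while E2f1, an activator, was at 71.9 CPM in G7 and 52.4 over the others.

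Lists for chromatin regulators (24 genes), RNA binding (20), cholesterol synthesis (19) and glial progenitor factors (10) had 0 genes past 2-fold either way relative to all other tags. Their medians were 0.06, 0.02, 0.07 and 0.11. Sox9, a factor of glia and progenitors, was at 142.5 CPM in G7 and 92.1 over the others. The glycolysis list had 3 of 18 genes lower (median -0.10), the p53 and apoptosis list 2 of 16 lower (median -0.14) and the interferon list 3 of 8 lower (median -0.49). The shares over all 11179 counted genes were 1.31% higher and 9.43% lower. The immediate early list, which can mark dissociation, had 1 of 10 higher and 1 lower (median -0.01), the higher being Fos with 11 UMIs in 6 G7 cells. Endothelial genes summed to 16.7 CPM in G7 and 81.4 over the others, pericyte genes to 11.6 in G7 and 58.98 over the others, choroid plexus genes to 130.95 in G7 and 2021 over the others, and haemoglobin and other erythroid genes to 19.3 in G7 and 237.9 over the others. GABAergic neuron genes summed to 507.1 CPM in G7 and 516.3 over the others, unipolar brush and nuclear neuron genes to 228.5 in G7 and 200.7 over the others, T and other immune cell genes to 1.28 in G7 and 16.6 over the others, and Y-linked genes with Xist to 210.5 in G7 and 180 over the others.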

How the data were processed

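In the P24-30 file each natural log value that the authors deposited is ln(1 + x), where x is a gene's scaled share of its cell. The file has 4991 cells and 19714 genes. UMIs were recovered by dividing x by the cell's smallest nonzero x, and 100% of 6195642 values came out whole within 0.001. The x of a cell summed to between 9368.26 and 10000, so in some cells UMIs that entered the authors' total are not in the values used here. The P12 counts as deposited cover 6000 barcodes and 24858 genes. The submitters' processing notes name CASAVA and mm10. Which aligner, counter and strand setting were used is not stated in the labels. Column names at P24-30 carry a tag and a number but no barcode, so shared barcodes could not be counted. No doublet caller was run and no cell was filtered, so doublets can remain, also among cells that carry S phase and neuron genes together.

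UMIs were summed per tag with numpy 2.4.6, pandas 2.3.3, scipy 1.17.1 and scikit-learn 1.9.0. Ratios carry exact conditional intervals, and a side at 0 was set to 3 UMIs over the group. Nearest neighbours used 30 principal components of 2000 variable genes. Cells were thinned with seed 1. The calculation was tested on simulated data. The genes named are the 12 highest and 12 lowest relative to all other tags and 8 each way relative to G5 and G6, by the bound nearest 1, plus the markers, Ptch1 and members of 32 lists. Members and lists were chosen with earlier results of these data known. Alternatives covered cell filters, scaling, count minimums, thinning and single cells.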

Additional observations from a re-analysis of the deposited data

Results flagged for a closer look

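In the P12 library, which the comparisons above do not use, 63.6% of cells (3809 of 5991 with at least 500 UMIs, 62.3 to 64.8) carried at least 2 of 500 UMIs from the S phase list and at least 2 from the early neuron list. This was picked out as a signal in data outside the main measurement. In G7 the share was 51.8%. Age, library and the authors' processing cannot be told apart between these files.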

How the results depend on the processing

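No paired analysis was possible because there is 1 library per age. The direction of the licensing, S phase, G2 and M and early neuron medians against G5, G6 and G15 was kept under every alternative run. Against all other tags, the licensing median (0.03) was 0.20 with a mean over cells of per-cell CPM and 0.31 with each other tag counted alike, and it lay below 0 without cells carrying 4 markers of another type and, at -0.13, without the richest cell of each gene. The S phase median (-0.53) was -0.011 and the G2 and M median (-3.55) -2.70 with each tag counted alike. The early neuron median (0.06) was -0.11 with per-cell CPM, -0.032 with each tag counted alike and -0.022 without the richest cell of each gene, and against G5 it was 0.11 with per-cell CPM (0.20 before). Against all other tags, 14 of 30 list medians took values on both sides of 0 over these alternatives. Of these, the lists at least 0.2 from 0 as reported were GABAergic neurons, at 0.088 with shallow and highly mitochondrial cells left out and 0.038 with at least 10 UMIs, and G1 cyclins, at 0.045 with each tag counted alike.

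Numbers of genes past 2-fold moved with the minimum. At 100 and at 10 UMIs, the numbers higher in G7 were 55 and 1890 against all other tags, 6 and 400 against G5, 14 and 549 against G6, and 10 and 446 against G15. The numbers lower were 23 and 666 against G5, 40 and 553 against G6, and 2 and 607 against G15. Without the cell richest in each gene, 55 were higher against all other tags, 14 against G5, and 24 lower against G15. That alternative and the comparison with G15 were chosen after seeing the data. It turned the ratios to all other tags of 9030612E09Rik (0.259), Tle3 (0.982), Hrasls5 (0.789), Ap3s2 (0.949), Tfpi (0.641) and Ms4a6b (0.691), and that of Tle3 to G5 (0.996). The median of all genes against all other tags was then -0.15 (-0.03 with all cells). For 4 gene ratios the cells left held too few UMIs for a value.

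States depend on the threshold and on depth. With at least 1 UMI, at least 3 UMIs and thinning to 1000 UMIs, G7 shares were 80.8%, 34.4% and 79.9% for S phase, 72.8%, 18.6% and 70.4% for G2 and M, 80.2%, 29.9% and 78.96% for S phase with early neuron, and 5.99%, 49.7% and 4.88% for early neuron genes without S phase or G2 and M genes. Thinned to 1000 UMIs, 14.3% of G7 cells had Cntn2 and 11.6% Nhlh1, and unthinned 28.7% had Mcm6, 25.7% Cntn2 and 23.1% Nhlh1.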
